A study of Mus musculus with 12 samples.

Results

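DNA break signalling, topoisomerase and repair genes were followed in mouse auditory cortex exposed for 1 h to a pharmacological cocktail that raises neuronal activity. The set holds 46 of the 20989 gene loci measured in each library, chosen by name for their role, and all 46 were measured in each of the 12 libraries. Acute coronal slices of 350 µm were cut from 6 C57bl6/J mice of 4-week old age and split at the midline. From each mouse, one hemisphere stayed in artificial cerebrospinal fluid (aCSF) for the control, and the other was kept for the same time in cocktail aCSF. The cocktail held (-)-Bicuculline methiodide at 50 µM, which blocks GABA-A receptors, together with the transmitters Dopamine hydrochloride at 100 µM, Serotonin hydrochloride at 100 µM and DL-Norepinephrin hydrochloride at 100 µM, the cholinergic agonist carbamoylcholine chloride at 50 µM, and Ascorbic Acid at 40 µM. The slice methods of the study add 1 h of rest in plain aCSF for both hemispheres after the incubation, which is missing from the labels, so RNA may have been taken after the cocktail was washed out. Poly-A RNA of the dissected cortex was sequenced, 6 libraries per group, and the level of a gene is given in FPKM, fragments scaled to transcript length and to the mapped fragments of the library. The slices had been cut and rested before either incubation, so both groups carry whatever the slicing itself did, and no unsliced tissue was part of the comparison.

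A topoisomerase relaxes the strain that transcription puts on the double helix by cutting DNA and sealing it again, and a cut that is not sealed becomes a DNA break with the enzyme attached. Neuronal activity is known to bring topoisomerase II to the promoters of early response genes. Breaks are read by the kinases ATM, ATR and DNA-PKcs, which phosphorylate the histone variant H2AX to γH2AX, and this mark gathers further proteins on the chromatin. Neurons no longer divide, so they close double-strand breaks mainly by end joining, while homologous recombination belongs to cells that copy their DNA, and damaged bases are handled by excision repair. The comparison asks whether the transcripts of this machinery had moved by the time the tissue was taken. It measures messenger RNA and says nothing of phosphorylation, of enzyme activity or of breaks themselves.

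Top2a lies far below Top2b and Top1 in the levels described further on, and the promoters of these 3 topoisomerase genes are shown. Each window runs from 250 bases before to 50 bases after the annotated start in the RefSeq annotation of GRCm38.p6. Capitals mark a CCAAT box (CCAAT) or a GC box (GGGCGG) on either strand. The window of Top2a, at chr11:99024140-99024439 on the minus strand, holds 6 CCAAT boxes and 1 GC box. That of Top2b, at chr14:16364956-16365255 on the plus strand, holds 2 and 1, and that of Top1, at chr2:160645647-160645946 on the plus strand, holds 0 and 3.
Top2a: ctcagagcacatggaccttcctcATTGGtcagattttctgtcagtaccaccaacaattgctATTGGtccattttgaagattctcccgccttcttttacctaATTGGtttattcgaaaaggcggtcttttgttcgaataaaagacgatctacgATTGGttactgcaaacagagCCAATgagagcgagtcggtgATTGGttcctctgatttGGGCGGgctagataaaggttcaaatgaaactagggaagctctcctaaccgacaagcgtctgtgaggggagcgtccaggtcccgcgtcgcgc
Top2b: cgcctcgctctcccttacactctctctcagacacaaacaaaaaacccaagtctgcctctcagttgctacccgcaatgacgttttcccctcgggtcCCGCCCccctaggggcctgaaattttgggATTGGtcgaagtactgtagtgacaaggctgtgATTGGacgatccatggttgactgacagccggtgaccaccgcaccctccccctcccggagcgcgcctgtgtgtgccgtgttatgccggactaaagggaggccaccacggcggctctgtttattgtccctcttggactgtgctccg
Top1: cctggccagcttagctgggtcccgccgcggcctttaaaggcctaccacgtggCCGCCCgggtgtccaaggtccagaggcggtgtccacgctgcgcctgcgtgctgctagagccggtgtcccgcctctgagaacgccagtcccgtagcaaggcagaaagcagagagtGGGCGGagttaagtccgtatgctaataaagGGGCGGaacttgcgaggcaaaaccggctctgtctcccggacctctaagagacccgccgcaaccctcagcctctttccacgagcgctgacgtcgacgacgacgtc

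A promoter window was found for 35 of the 46 genes. A CCAAT box was present in 18 of the 35 (51.4%), against 37.9% of 27025 windows of the same length genome-wide, and a GC box in 25 (71.4%) against 35.9%. The median number of CpG dinucleotides was 22 in the 35 windows and 7 in all windows. The AP-1 site TGANTCA, bound by Fos and Jun proteins, was in 0 of the 35 windows and in 7.93% of all windows. The cAMP response element TGACGTCA was in 1, that of Brca2, against 1.88% of all. The E2F site TTTNGCGC, read in dividing cells, was in 1, that of Chek2, against 1.38% of all. These are matches of letters and not shown to be binding sites.

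Depth ran from 10600193 to 19768184 reads per library, as recovered from the confidence interval that accompanies each FPKM value. One library stood apart. The control library of mouse 1, the deepest of the 12, was the lowest of the 6 controls at 50.09% of the 12032 loci tested, against 7.81% to 15.4% for the other controls. Its deviation followed the GC content of the transcripts, as described further on, and estimates of change that move with it are also given without that mouse. The treatment check was Fos, a gene induced by neuronal activity, which was 321.9 ± 69.6 FPKM in control and 631.5 ± 79.5 in cocktail hemispheres (SD, n = 6 each). It rose in 6 of 6 mice (log2 fold change 0.99 ± 0.079, SE, adjusted p = 2.92e-05, limma).

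In control cortex most of these genes were expressed at low levels. Mean control FPKM ran from 0.259 for Brca2 to 65.1 for Ddb1, with a median of 2.61. The 39 genes that averaged at least 1 FPKM over the 12 libraries had a median of 4.10, against 10.2 over all loci that passed the same filter. By mean control level, 9 genes were at 10 FPKM or more, 8 lay between 5 and 10, 22 between 1 and 5, and 7 were under 1. The plot of levels by library shows all 46 genes in both groups.

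**Figure D1:**
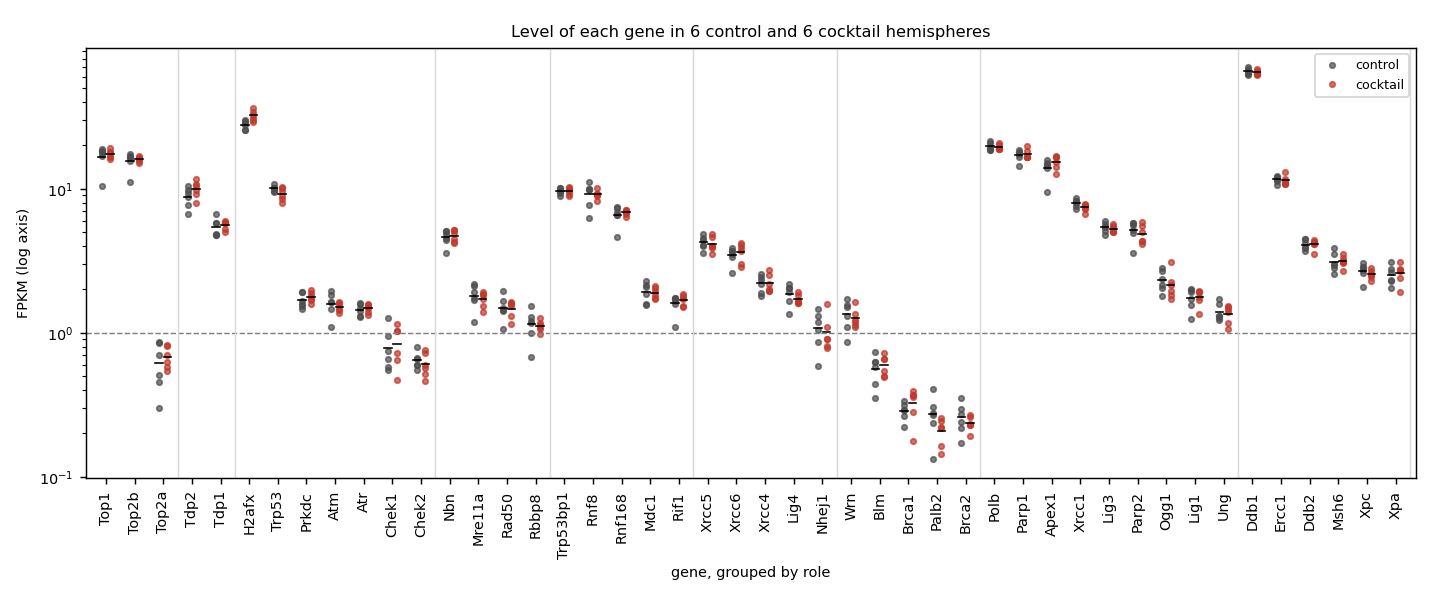
Level of each of the 46 genes in FPKM (log axis) in the 6 control and 6 cocktail hemispheres (points), with group means as short lines, genes grouped by role and the filter at 1 FPKM as a dashed line. Control means run from 0.259 (Brca2) to 65.1 (Ddb1), Top2a lies far below Top2b and Top1, and the low control points of Top1, Top2b and Apex1 all belong to mouse 1.

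Among the topoisomerases, Top1, which cuts a single strand, had 10.4 FPKM in its lowest, 18.0 in the median and 18.7 in the highest control library. Top2b, the topoisomerase II of cells that have stopped dividing, had 11.1, 16.4 and 17.3. Top2a, the form of dividing cells, had 0.301, 0.601 and 0.864 FPKM, from 34 to 100 reads per library over both groups. Top2b exceeded Top2a in each control library, by a median of 27.1 times (range 19.4 to 37.97). Markers of dividing cells were as scarce. The 8 genes Mki67, Cdk1, Ccnb1, Birc5, Bub1, Tpx2, Cenpf and Kif11 together summed to between 2.54 and 3.44 FPKM in control and 2.56 to 3.85 in cocktail hemispheres, and none of the 8 reached a mean of 1. In bulk tissue, fewer cells expressing a gene and less RNA per cell cannot be told apart.

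Levels are scaled to the length of the transcript, and the FPKM of partners within a role was compared inside each library. Over 20 pairs of partners or paralogs, differences of log2(FPKM + 1) within the 6 control libraries were compared by exact sign-flip permutation (two-sided), for which 0.03125 is the smallest p that 6 libraries allow. In 13 pairs one gene was higher in all 6 control libraries, with adjusted p = 0.0481 in this exact test for each, adjusted over the 20 pairs. All 13 had the smallest possible p, so whether they passed depended on how many of the listed pairs reached it. The other 7 pairs did not pass. The test shows only that a ratio of FPKM kept its side across libraries. A bias of one gene that repeats in every library would give the same result, so the test cannot decide which transcript was more abundant. Without mouse 1 the mean difference kept its sign in all 20 pairs, but 5 libraries cannot reach 0.05 in this test. Where an antisense neighbour shares exons, its reads may count in these levels. That holds for 20 of the 46 genes, with the longest shared stretches in Trp53bp1, Lig3 (1826 bases with Rffl), Top2b (1793 with Rarb), Apex1 (877 with Pip4p1) and Atr.

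The 2 enzymes that free DNA ends from a stalled topoisomerase were both present. Tdp2, which releases topoisomerase II, was at 8.81 ± 1.36 FPKM (SD, n = 6) and Tdp1, which releases topoisomerase I, at 5.42 ± 0.79. The ratio of Tdp2 to Tdp1 had a median of 1.49 and was above 1 in all 6 libraries (range 1.35 to 2.17).

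H2afx, which encodes H2AX, was the most abundant gene of the break mark and kinase group at 27.8 ± 1.89 FPKM. The transducing kinases were far lower and close to each other, with Prkdc, the catalytic subunit of DNA-PK, at 1.68 ± 0.20, Atm at 1.59 ± 0.30 and Atr at 1.45 ± 0.14. Neither Atm and Atr (median ratio 1.02, range 0.855 to 1.48) nor Atm and Prkdc (0.969, range 0.754 to 1.06) differed beyond the spread between libraries. The checkpoint kinases Chek1 and Chek2 had mean levels of 0.788 ± 0.27 and 0.644 ± 0.088, whereas Trp53, which encodes p53, was at 10.05 ± 0.47.

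On the chromatin side of the response, the adaptor Trp53bp1, which favours end joining, was at 9.58 ± 0.48 FPKM. The ubiquitin ligases Rnf8 and Rnf168 were at 9.15 ± 1.81 and 6.58 ± 1.04, with a median ratio of Rnf168 to Rnf8 of 0.705 (range 0.660 to 0.892). Rnf8 shares 1542 exonic bases on the same strand with the annotated locus Gm28043, so its level is uncertain. Mdc1, which reads γH2AX, was at 1.91 ± 0.30, and Rif1, which acts with the adaptor above, at 1.6 ± 0.25.

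The subunits of the MRN complex, which senses broken ends, were not equal in FPKM. Nbn was at 4.59 ± 0.56 FPKM, Mre11a at 1.80 ± 0.36 and Rad50 at 1.5 ± 0.29. The median ratio of Nbn to Rad50 was 3.22 (range 2.63 to 3.43), and that of Rad50 to Mre11a 0.852 (range 0.733 to 0.900). Rbbp8, which starts the resection of ends, was at 1.15 ± 0.29.

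In end joining, the Ku subunits Xrcc5 and Xrcc6, which cap a broken end, were at 4.24 ± 0.45 and 3.46 ± 0.47 FPKM (median ratio of Xrcc6 to Xrcc5 0.821, range 0.725 to 0.913). Xrcc4 and its ligase Lig4 were at 2.21 ± 0.30 and 1.86 ± 0.31 and did not differ beyond their spread (median ratio 1.14, range 0.994 to 1.55). Nhej1, which bridges the ends, was at 1.07 ± 0.32. The genes of homologous recombination were lower still. Brca1, Brca2 and Palb2, which load the recombinase onto resected DNA, were at 0.288 ± 0.040, 0.259 ± 0.064 and 0.271 ± 0.089. Of the RecQ helicases, Wrn was at 1.34 ± 0.32 and Blm at 0.559 ± 0.14, with a median ratio of Blm to Wrn of 0.412 (range 0.369 to 0.481).

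Base excision and single-strand repair held several of the more abundant genes. Polb, the gap-filling polymerase of base excision repair, was at 19.6 ± 1.14 FPKM, Parp1, the sensor of nicks, at 17.2 ± 1.45, and Apex1, the endonuclease at abasic sites, at 13.9 ± 2.30. The scaffold Xrcc1 was at 7.97 ± 0.52 and its partner ligase Lig3 at 5.39 ± 0.41. Parp1 exceeded Parp2 (5.13 ± 0.83) by a median of 3.39 times, and Lig3 exceeded the replicative ligase Lig1 (1.75 ± 0.30) by 2.99 times and Lig4 by 2.73 times. The glycosylases, which cut out the damaged base itself, were scarcer, with Ogg1 at 2.31 ± 0.39 and Ung at 1.4 ± 0.20, and Apex1 exceeded Ogg1 by 6.18 times (range 4.63 to 8.07). Polb exceeded Lig3 by a median of 3.57 times.

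In nucleotide excision repair, Ddb1, an adaptor of the CUL4 ubiquitin ligase with roles outside repair, was the highest of the 46 genes at 65.1 ± 2.99 FPKM. Its damage-reading partner Ddb2 was at 4.10 ± 0.32, lower by a median of 16.0 times (range 14.6 to 17.3). The nuclease subunit Ercc1 was at 11.6 ± 0.60, the damage sensor Xpc at 2.69 ± 0.34 and Xpa at 2.53 ± 0.37, with no difference between the last pair beyond their spread (median ratio 1.07, range 0.93 to 1.25). Msh6, which reads mismatches, was at 3.12 ± 0.48.

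**Figure D2:**
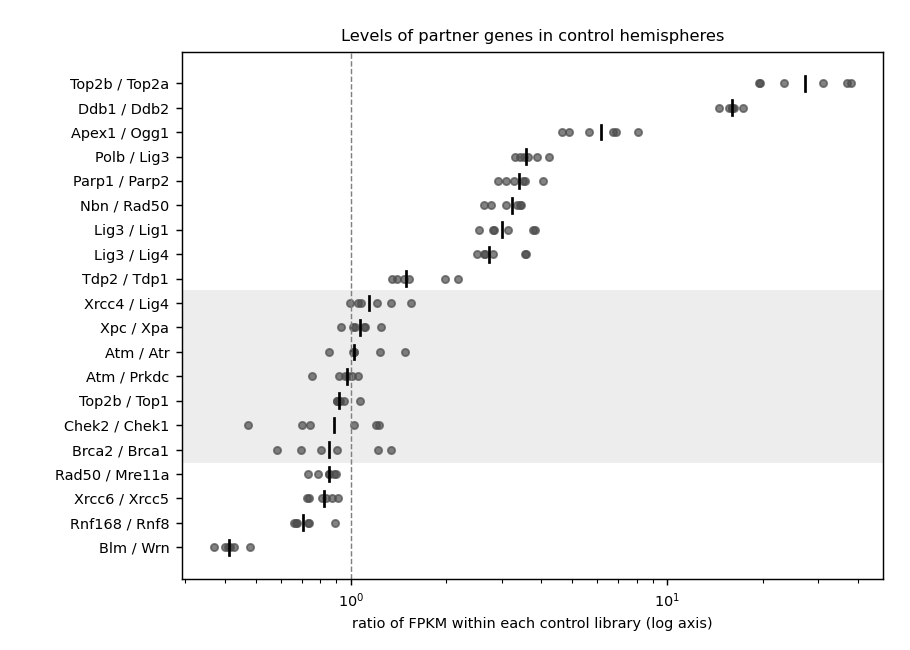
Ratio of FPKM between partner genes within each of the 6 control libraries (points, log axis), with the median as a short line, equality as a dashed line and the 7 pairs that did not pass the exact test shaded. The median ratios run from 0.412 (Blm to Wrn) to 27.1 (Top2b to Top2a), and the points of all 13 unshaded pairs lie on one side of equality.

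The order of most partners was the same in the cocktail hemispheres, where 14 of the 20 pairs passed the same exact test. Rad50 against Mre11a and Xrcc6 against Xrcc5 no longer passed there (adjusted p = 0.184 and 0.208, exact permutation test). Top2b against Top1, Atm against Prkdc and Xrcc4 against Lig4 passed in cocktail hemispheres (adjusted p = 0.0446 each, exact permutation test). The differences between groups in these pairs were not tested.

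No transcript of the set passed the test between cocktail and control hemispheres. Of the 46 genes, 39 had a mean of at least 1 FPKM over the 12 libraries and were tested, and 0 of the 39 had an adjusted p under 0.05 in limma with the mouse as a block, against 180 of 12032 loci (1.5%). At an unadjusted p under 0.05 there was 1, H2afx, against 8.05% of all loci. Voom on the recovered reads called 0 of the 39, beside 121 of the 12032 loci. None of the 39 moved one way in all 6 mice, against 6.3% of all loci, and for none did the values of the groups stand clear of each other, against 0.914%. Of the 39, 20 were higher and 19 lower in cocktail (54.4% of all loci were higher). Without mouse 1 that split was 9 higher and 30 lower (42.5% of all loci higher), and with voom 16 higher and 23 lower (48.9% of all loci higher).

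The estimated changes were small. Log2 fold changes, on the scale of log2(FPKM + 1), ran from −0.12 for Trp53 to 0.20 for H2afx, with a median of 0.0079 against 0.0076 over all loci tested. The median absolute log2 fold change was 0.037 for these genes and 0.048 for all loci. The 95% intervals of all 39 lay between −0.26 and 0.34, and 33 of the 39 intervals (84.6%) fell within 0.25 of no change, as did 80.9% of all loci. This scale understates the fold change in level of genes near 1 FPKM. With voom, which adds no pseudocount to FPKM, the intervals ran from −0.58 to 0.44, and 38 of the 39 lay within 0.5 of no change.

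**Figure D3:**
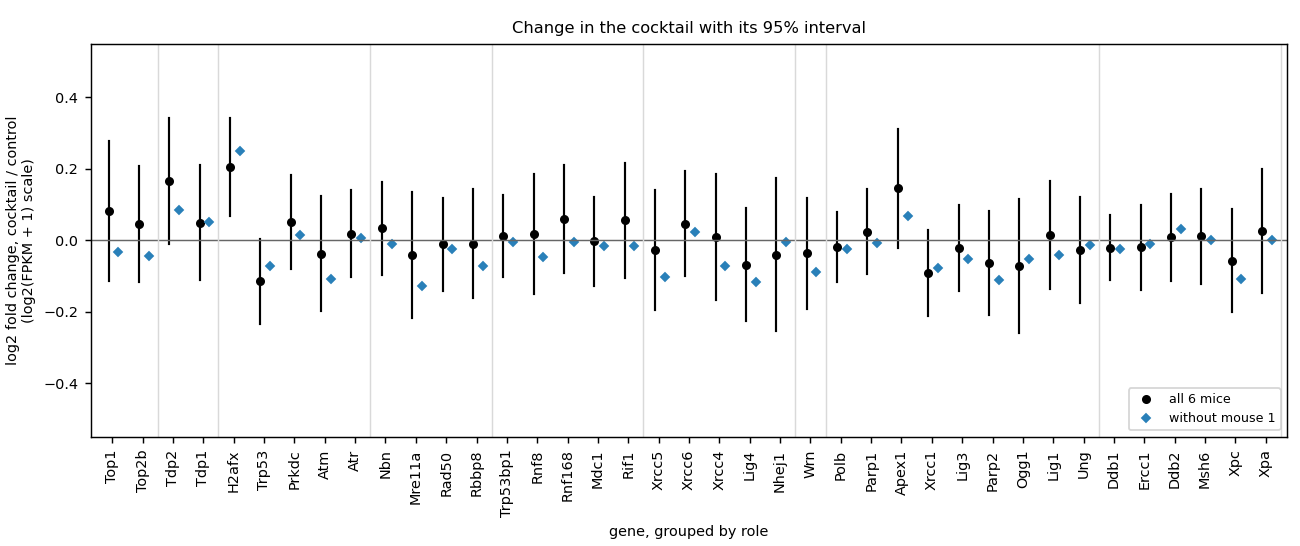
Log2 fold change of cocktail over control on the log2(FPKM + 1) scale for the 39 genes tested (black points, with 95% intervals from limma as lines) and the same estimate without mouse 1 (blue diamonds), grouped by role. The black points lie between −0.12 (Trp53) and 0.20 (H2afx), and most diamonds lie below them, 30 of 39 under 0.

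Among the topoisomerases and their repair enzymes no change passed. Top1 had 16.1, 17.4 and 19.2 FPKM (lowest, median and highest) in cocktail, against 10.4, 18.0 and 18.7 in control (log2 fold change 0.082 ± 0.090, SE, higher in 3 of 6 mice). Top2b had 15.1, 16.1 and 16.8 against 11.1, 16.4 and 17.3 (0.046 ± 0.075, higher in 2 of 6). In both genes the groups overlapped, the control of mouse 1 was the lowest library of the 12, and the sign turned without that mouse (−0.032 and −0.043). Top2a, below the filter, had 0.541, 0.665 and 0.826 FPKM in cocktail and was higher in 4 of 6 mice. Tdp2 had 7.96, 10.2 and 11.7 FPKM against 6.73, 9.07 and 10.4, with a log2 fold change of 0.17 ± 0.081 (95% interval −0.010 to 0.34, adjusted p = 0.669, limma, higher in 4 of 6 mice). Its largest within-mouse difference was in mouse 1, and without it the estimate was 0.084. Tdp1 stood at 0.049 ± 0.074.

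H2afx came nearest to the threshold. Its control libraries had 29.6, 25.6, 28.5, 27.6, 25.7 and 29.9 FPKM in mice 1 to 6, and the cocktail hemispheres of the same mice had 29.2, 30.2, 34.3, 32.5, 36.3 and 30.9. Cocktail was higher in 5 of 6 mice, mouse 1 being the exception, and the groups overlapped only through the cocktail value of mouse 1. The log2 fold change was 0.20 ± 0.063 (SE, 95% interval 0.067 to 0.34, adjusted p = 0.234, limma), with p = 0.0625 in the exact two-sided sign-flip permutation test. Without mouse 1 it was 0.25, with adjusted p = 0.075 (limma), and the values of the other 5 mice did not overlap between groups, as for 1.51% of all loci. After removal of the trend with GC content in each library, an alternative chosen after the data were seen, 211 of 11590 loci were called. H2afx was the only call among the 39, with a log2 fold change of 0.24 and adjusted p = 0.0423 (limma), higher in 6 of 6 mice. With voom on recovered reads, which carry no bias correction, its log2 fold change was 0.12, with adjusted p = 0.567 (limma-voom). H2afx lies at chr9:44334715-44336073 (mm10), and its transcript has the highest GC content of the 39, at 62.3%. Its exons share 141 bases with Gm44335 on the opposite strand. H2afx transcripts exist in forms with and without a poly-A tail, and poly-A selection keeps only the first.

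**Figure D4:**
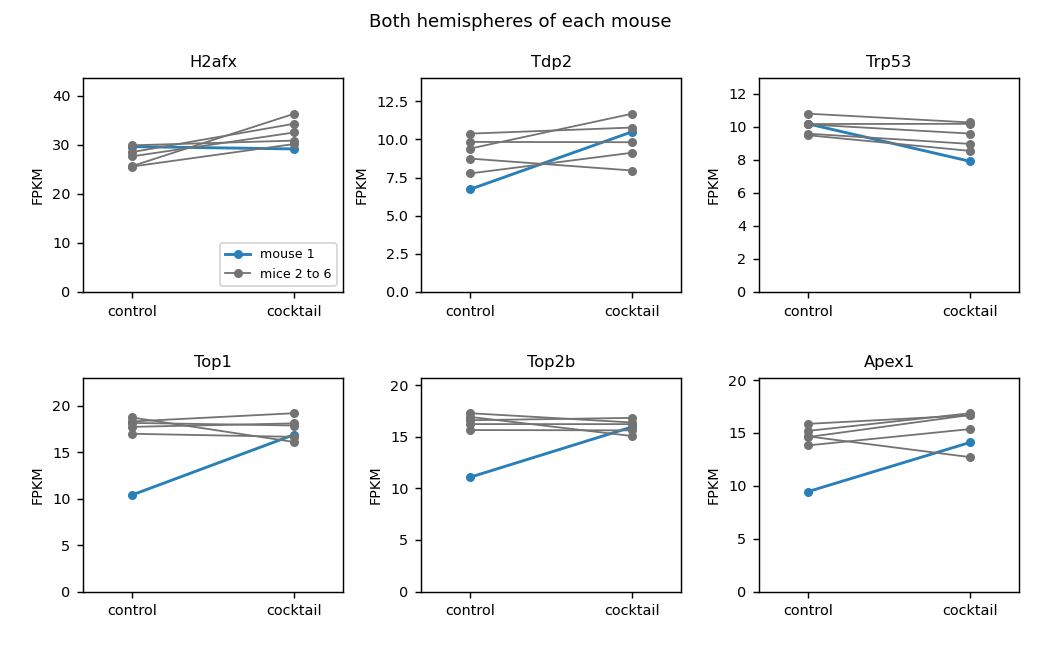
FPKM of 6 genes in the control and the cocktail hemisphere of each mouse, a line joining the hemispheres of the same mouse, with mouse 1 in blue and axes starting at 0. H2afx was higher in cocktail in all mice but mouse 1, Trp53 lower in all but mouse 4, and in Top1, Top2b and Apex1 the control hemisphere of mouse 1 lies below all other points.

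Trp53 had the lowest estimate. Its levels were 7.90, 9.27 and 10.3 FPKM (lowest, median and highest) in cocktail and 9.48, 10.1 and 10.8 in control, lower in cocktail in 5 of 6 mice (log2 fold change −0.12 ± 0.055, SE, 95% interval −0.23 to 0.0044, adjusted p = 0.647, limma). The groups overlapped, and the lowest library was the cocktail of mouse 1. Voom gave −0.18 with an unadjusted p of 0.0247 and an adjusted p of 0.37 (limma-voom), while without mouse 1 the estimate was −0.073. Of the kinases, Atm had 1.37, 1.52 and 1.64 FPKM in cocktail and 1.10, 1.63 and 1.94 in control, and was lower in 5 of 6 mice (−0.037 ± 0.073). Only mouse 1 went the other way, and without it the estimate was −0.11. Prkdc had 1.58, 1.76 and 1.98 FPKM against 1.45, 1.62 and 1.93, and was higher in 5 of 6 mice (0.052 ± 0.060, and 0.016 without mouse 1). The groups overlapped in both kinases. Atr stood at 0.018 ± 0.056, and Chek1 and Chek2, below the filter, were at 0.839 ± 0.26 and 0.604 ± 0.11 FPKM in cocktail.

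Of the chromatin factors, Trp53bp1 had 8.92, 9.71 and 10.3 FPKM in cocktail and 8.87, 9.5 and 10.2 in control (log2 fold change 0.012 ± 0.053, higher in 3 of 6 mice), so the groups overlapped almost completely. It shares 2130 exonic bases with Tubgcp4 on the opposite strand. Estimates for Mdc1, Rnf8, Rnf168 and Rif1 lay between −0.0029 and 0.060. Without mouse 1, Rnf8 was at −0.048, Rnf168 at −0.0053 and Rif1 at −0.016. In the MRN complex and resection, Rad50 had 1.15, 1.56 and 1.63 FPKM against 1.07, 1.45 and 1.94 (−0.012 ± 0.060, higher in 3 of 6 mice, groups overlapping), and Nbn, Mre11a and Rbbp8 lay between −0.041 and 0.033. In end joining, Xrcc6 had 2.87, 3.76 and 4.19 FPKM against 2.58, 3.59 and 3.90 and was higher in 5 of 6 mice (0.046 ± 0.067), with mouse 4 the exception and the groups overlapping. Xrcc5, Xrcc4, Lig4 and Nhej1 lay between −0.069 and 0.0079. Wrn stood at −0.037 ± 0.071. Brca1, Brca2, Palb2 and Blm, all below the filter, had cocktail means of 0.325, 0.235, 0.208 and 0.596 FPKM, and in none of them did the groups separate.

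In the repair of single strands and bases, Parp1 had 16.5, 16.7 and 19.9 FPKM in cocktail against 14.5, 17.7 and 18.4 in control (log2 fold change 0.024 ± 0.054, higher in 3 of 6 mice). Polb had 18.7, 19.0 and 20.6 against 18.6, 19.3 and 21.3 (−0.019 ± 0.045, higher in 3 of 6). The groups overlapped in both genes. Apex1 had 12.7, 16.0 and 16.9 FPKM against 9.45, 14.6 and 15.9 and was higher in 5 of 6 mice (0.15 ± 0.076, 95% interval −0.021 to 0.31, adjusted p = 0.693, limma). The groups overlapped, the control of mouse 1 was its lowest library, and without that mouse the estimate was 0.068. Xrcc1 had 6.65, 7.53 and 7.83 FPKM against 7.20, 8.08 and 8.65 and was lower in 5 of 6 mice (−0.092 ± 0.055, −0.078 without mouse 1, adjusted p = 0.769, limma). The groups overlapped, and voom gave −0.20 with an unadjusted p of 0.0455 and an adjusted p of 0.436 (limma-voom). Lig1, Lig3, Parp2, Ogg1 and Ung lay between −0.071 and 0.014.

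In nucleotide excision and mismatch repair the estimates of 6 genes lay between −0.058 (Xpc) and 0.025 (Xpa). Ddb1, the deepest measured of the set with 3314 to 6411 reads per library, had 61.9, 63.2 and 68.1 FPKM in cocktail and 61.8, 64.6 and 69.5 in control. Its groups overlapped, its log2 fold change was −0.021 ± 0.041 and its 95% interval, −0.11 to 0.070, was among the narrowest. Ddb2, Ercc1 and Msh6 stood at 0.0089, −0.020 and 0.011.

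The control library of mouse 1 was the lowest of the 6 controls for 28 of the 39 genes, and at 50.09% of all loci tested. The median of the 39 lay 0.26 log2 units below the other controls there, against 0.15 over all loci tested, and 21 of the 39 lay more than 0.25 below (34.1% of all loci). In the other 11 libraries the median deviation of the 39 from their group was between −0.061 and 0.11. Across 11590 loci with a GC value, the deviation of this library had a Spearman rho of 0.55 with the GC content of the transcript (0.47 over the 39 genes), against −0.23 to 0.15 in the other libraries. These are descriptions across genes, which are not independent replicates. With the GC trend removed, the median of the 39 lay 0.041 below the other controls and the library was lowest for 11 of the 39 (25.8% of all loci), while Top1 (−0.40), Rnf8 (−0.43) and Apex1 (−0.51) still lay well below. The astrocyte markers Aqp4, Gfap, Aldh1l1, Slc1a3 and Gja1 also summed to their lowest value in this library (220.9 FPKM, against a highest of 282.6 among controls), as did the thalamus markers Tcf7l2, Prkcd and Lef1 (5.30 against 6.90) and the markers of dividing cells (2.54 against 3.44). The oligodendrocyte genes Mbp, Mog and Mag summed to 1245 FPKM there, within the 1189 to 1475 of the other controls. Markers of endothelial cells summed to their highest control value there (39.93 FPKM, against a lowest of 32.21). Sums for excitatory neurons (1392 FPKM), inhibitory neurons (504.6), microglia (58.59) and oligodendrocyte precursors (85.1) were neither lowest nor highest among controls. The same held for markers of striatum (6.356) and choroid plexus (0.6828). The part of these cell types in the deviation was not tested.

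**Figure D5:**
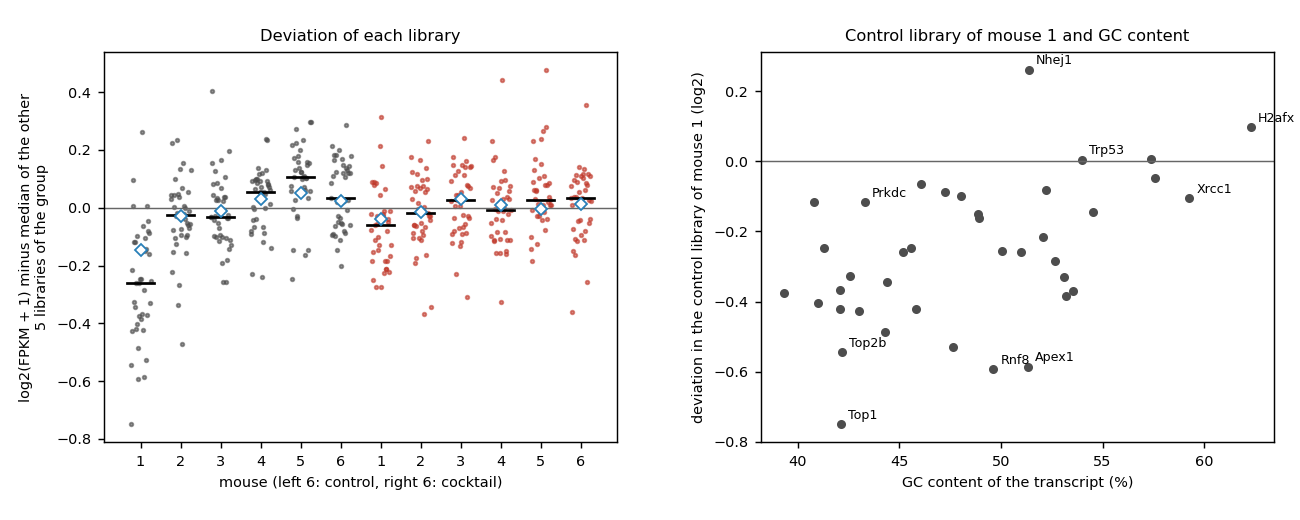
Left, deviation of the 39 genes (points) in each library from the median of the other 5 libraries of its group, in log2(FPKM + 1), with the median of the 39 as a line and that of all loci tested as a white diamond, control in grey and cocktail in red. Right, the deviation in the control library of mouse 1 against the GC content of the transcript in percent, where Top1 and Top2b lie low at low GC content and H2afx, at 62.3% GC, lies above 0.

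Control values of the 46 genes had a median coefficient of variation of 15.1%, and 10.5% without mouse 1, against 6.98% from read counting alone. Of the 20 genes with a positive estimate, 11 turned negative without mouse 1, and none turned the other way. Without that mouse the median log2 fold change of the 39 was −0.025, against −0.013 over all loci, and H2afx, Atm and Rbbp8 each moved one way in the remaining 5 mice. Those 3 of 39 compare with 10.5% of all loci in the same 5 mice.

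Other genes of the repair pathways were counted in the same fit. Of 109 further genes, among them Fanconi genes, glycosylases and SMC complexes, 81 were tested and 0 were called by limma (1.5% of all loci). An unadjusted p under 0.05 was reached by 4 of the 81 (8.05% of all loci), and 34 were higher in cocktail (54.4% of all loci). The smallest p belonged to Neil1, a glycosylase for oxidised bases, with 3.74 ± 0.69 FPKM in control and 4.58 ± 0.95 in cocktail (log2 fold change 0.23 ± 0.059, SE, higher in 6 of 6 mice, adjusted p = 0.109, limma). Next was Pcna, the sliding clamp of replication and repair, at 42.8 ± 2.31 and 50.4 ± 7.50 FPKM (0.22 ± 0.079, higher in 5 of 6, adjusted p = 0.385, limma).

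Target genes of p53, the transcription factor encoded by Trp53, were counted beside them. Log2 fold changes of the 22 tested ran from −0.34 to 1.07, with a median of 0.028, and 12 were higher in cocktail (54.4% of all loci). An unadjusted p under 0.05 in limma was reached by 7 of the 22, against 8.05% of all loci. Against 1.5% of all loci called in either direction, 3 of the 22 rose and 0 fell. They were Btg2, an antiproliferative gene (32.2 ± 11.9 to 66.4 ± 16.5 FPKM, log2 fold change 1.07, adjusted p = 3.86e-05, limma), Plk2 (100.0 ± 9.43 to 144.1 ± 13.5, 0.52, adjusted p = 0.000154, limma) and Plk3 (21.6 ± 1.44 to 29.0 ± 3.25, 0.41, adjusted p = 0.00276, limma). The last pair encode polo-like kinases, and each of the 3 rose in 6 of 6 mice. All 3 are also known as activity-regulated genes of neurons. The list was chosen with earlier results of these data known, so its counts do not measure p53 targets as a class.

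The labelled tissue was checked against its markers. The excitatory neuron markers Slc17a7, a vesicular glutamate transporter, and Camk2a, a kinase of glutamatergic synapses, ran from 624.1 to 743.3 and from 531.7 to 667.7 FPKM over the 12 libraries. Neither passed the test between groups. The choroid plexus markers Ttr, Folr1 and Kcnj13 summed to at most 1.17 FPKM in control and 0.70 in cocktail libraries.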

How the data were processed

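Levels were taken from the FPKM values that the authors deposited for each of the 12 libraries, with their confidence interval and status. The authors removed ribosomal reads with BWA 0.6.1, aligned strand-specific single reads of 50 bases to mm10 with TopHat 1.4.1, and estimated FPKM with Cufflinks 1.3.0 with bias correction. The strand setting of Cufflinks is not given in the sources used here, so genes with an antisense partner may share reads. The authors' table of their own comparison, with mean read counts by HTSeq 0.6.1p1 and fold changes and p-values by DESeq2 1.6.3, was not used.

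Of 20989 loci, the 12032 that averaged 1 FPKM or more in the 12 libraries entered the fit. It ran on log2(FPKM + 1) in limma 3.58.1 (R 4.3.3), with mouse as a block, a variance trend and Benjamini-Hochberg adjustment over all loci at 0.05. Reads behind each value were recovered from its interval, which spans 2 Poisson standard deviations on either side. Of 36158 values under 20 reads, 83.2% came out whole to within 0.05. Read numbers speak for counting error only. Single values and pairs of genes were tested with exact sign-flip permutation in Python 3.11.15. The fit was tested on simulated data first. Cells were not separated, and each library is one dissected cortex.

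Mouse numbers in the labels pair the hemispheres. Deviations from the group means correlated at 0.216 to 0.406 between hemispheres of the same mouse (6 pairs) and at −0.42 to 0.445 between different mice (30 pairs).

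Gene positions are those of the files, counted from 1. Exon overlaps come from GENCODE M21, promoters from RefSeq (GRCm38.p6). No promoter entry was matched for Tdp2, H2afx, Prkdc, Rad50, Nbn, Rif1, Polb, Xpc, Ddb2, Rbbp8 and Wrn. The genes, lists, pairs and tests were chosen with earlier results of these data known. Lowest, median and highest values are given for 15 genes named by role and for the 5 genes with the smallest p, with all 12 values for H2afx, and the other genes by mean and SD or by range. Alternatives were no block, pseudocount 0.1, no filter, a filter at 5 FPKM, median-of-ratios scaling, voom, each mouse left out, and removal of the GC trend, which was added after the data were seen. Some marker and repair genes are not reported here.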

Additional observations from a re-analysis of the deposited data

Results flagged for a closer look

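In each group of 6 values, the 6 control levels, the 6 cocktail levels and the 6 within-mouse differences of log2(FPKM + 1), the highest and lowest value were compared with the rest by Dixon's criterion at 95%. Of 138 groups, 14 held a value set apart, where chance gives 1 in 20, or 6.9, for normally distributed values. The groups are not independent, since genes share libraries and the differences come from the same levels. Whether 14 exceeds chance was not tested. Of the 14, 12 belonged to mouse 1 and 5 of those to its control library. Top1 was at 10.4 FPKM in the control of mouse 1 (others 17.0 to 18.7), with a within-mouse difference of 0.65 (others −0.21 to 0.065). Top2b was at 11.1 FPKM there (others 15.7 to 17.3), with a difference of 0.49 (others −0.16 to 0.018). Rif1 was at 1.10 FPKM there (others 1.59 to 1.76), with a difference of 0.41. Rnf168 was at 4.61 FPKM (others 6.58 to 7.49) and Apex1 at 9.45 (others 13.8 to 15.9) in the same library. Within-mouse differences of mouse 1 were also apart for Atm (0.32), Mre11a (0.39) and Rbbp8 (0.30), and its cocktail level was apart for Ddb2 (3.52 FPKM, others 4.14 to 4.38). The other 2 values were the differences of Xrcc6 in mouse 4 (−0.27, others 0.039 to 0.17) and of Msh6 in mouse 5 (−0.22, others −0.0070 to 0.11).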

How the results depend on the processing

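None of the genes was called under the 12 alternatives planned. With the GC trend removed 1 of the 39 was called, H2afx, beside 211 of 11590 loci. It was also the 1 gene that then moved one way in all 6 mice. That count was 0 with all mice, against 6.3% of all loci, and 1 to 3 when a mouse was left out. Without mouse 1 it was 3 of the 39, against 10.5% of all loci in the remaining mice. The share of all loci is not given for the other mice left out, so those counts cannot be set against a background. The median log2 fold change of the genes ran from −0.025 to 0.021 over the 13 alternatives. Without the replicate block, 0 of the 39 genes and 88 of all loci were called, against 180 with mice paired, and the block changed no other call here. Without mouse 4, 104 loci were called. Estimates close to 0 changed sign. With voom Trp53bp1 was at −0.011, Parp1 at −0.027 and Polb at 0.028, and with the GC trend removed Trp53bp1 was at −0.0043. With a mouse left out, Top1 ran from −0.032 to 0.14, Top2b from −0.043 to 0.087, Rad50 from −0.029 to 0.018, Trp53bp1 from −0.0063 to 0.041 and Parp1 from −0.0087 to 0.059. Top1 and Top2b changed sign only without mouse 1. The difference of Xpc from Xpa was −0.015 in cocktail hemispheres. The cause of these changes was not tested. Low levels limit Palb2, Nhej1 and Chek2 most, at 3 to 38 reads per library.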
